A study of Rattus norvegicus with 12 samples.

Results

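Complement and the clotting system are the main families of enzyme cascades that the liver secretes into blood, and 40 of their genes were followed here in rats fed wakame, an edible brown seaweed. The genes were chosen by name, and a gene was taken up through a probe set that the platform annotation lists under its single symbol. A probe set is a group of short array probes aimed at one transcript. Of the 40 genes, 33 had such a probe set, 41 probe sets in all, and 25 genes had 1 that varied between animals, with a standard deviation (SD) over the 12 arrays above 0.01 log2. These 25 measured genes, with 26 varying probe sets, are described below, and the other 15 count as unmeasured. Over the whole table, 2301 of 14217 genes with a single symbol (16.2%) had a varying probe set, against 75.8% of the 33 genes here.

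Complement marks and lyses microbes. In its classical and lectin branches, recognition molecules carry serine proteases that cleave the next components, the branches meet at C3, and the terminal components assemble into a membrane pore. Clotting runs through a similar chain of zymogens to thrombin, which turns fibrinogen into fibrin, and inhibitors and plasmin hold the clot in check. Hepatocytes make most of these proteins, several of which rise or fall in plasma with inflammation.

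Liver RNA came from 12 male Sprague Dawley rats, 9 weeks old, which had eaten 1 of 3 diets for 28 days. The control group ate a purified AIN-93G diet, the low group the same diet with 0.1% wakame powder and the high group the same diet with 1% wakame powder. Each group gave 4 arrays of separate animals, numbered as in the labels. The rats were kept 3 to a cage with 6 rats per diet, so effects of diet and of cage cannot be told apart, and since the tissue was whole liver, fewer cells of a type and less RNA per cell cannot be told apart either. Values are the log2 values deposited by the authors, and how they combined probes is not given in the sources used here, so a difference in log2 need not equal a fold change in RNA. Differences were tested with limma on the 3240 varying probe sets of the table, p-values were adjusted by Benjamini and Hochberg's method across those 3240, and rose or fell is written only for an adjusted p under 0.05.

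Arrays of one diet correlated at 0.911 to 0.961 over the varying probe sets. Of 10 hepatocyte markers 9 were on the table and 6 varied, and their array means ran from 12.19 to 12.54 log2 for control rats, 12.51 to 12.80 for low and 12.13 to 12.63 for high. In low against control 3 of the 6 were higher and 3 lower, with a median of 0.0053. The higher low means came mainly from Cyp2e1 at 0.90 and Tat at 0.77 (limma adjusted p = 0.370 and 0.596). The 3-prime minus 5-prime difference of the Gapdh control probe sets, which grows as RNA breaks down, averaged 1.05 ± 0.014 log2 for control rats and 1.21 ± 0.16 for high rats (SD, n = 4; exact permutation p = 0.143, 2-sided). Its part in the results below was not tested.

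With 1% wakame, 1 of the measured genes rose and none fell against control. The gene that rose was Masp1, some of whose transcripts encode serine proteases of the lectin branch that ride on mannose-binding lectin and related collectins. Its log2 values were 9.22, 9.43, 9.26 and 9.17 in the control rats 1 to 4, 9.31, 9.12, 9.61 and 9.48 in the low rats and 9.90, 9.82, 9.76 and 9.73 in the high rats. All 4 high rats lay above every control and every low rat, while low and control overlapped. The difference between high and control was 0.53 ± 0.10 log2 (standard error, SE, of the fit, n = 4 per diet; limma adjusted p = 0.0375), from a mean of 9.27 ± 0.11 to 9.80 ± 0.073 (SD). Against low, Masp1 in high differed by 0.42 ± 0.10 (limma adjusted p = 0.420), and low differed from control by 0.11 ± 0.10 (adjusted p = 0.751). Across the table, 0.864% of varying probe sets passed as higher in high than in control, 0.802% as lower and 1.67% in either direction, and here 1 of 26 passed as higher and 0 as lower. The 54 calls behind that 1.67% became 7 to 49 when 1 array was left out, with the fewest without high 2. The Masp1 call was lost, with limma adjusted p from 0.060 to 0.123, when any array of control or high, or low 1, was left out, and it stood without low 2, low 3 or low 4. It was also lost with all probe sets in the fit (adjusted p = 0.229), with 1 probe set per gene (0.0517) and with the replicate number as a block (0.100), and the difference stayed between 0.50 and 0.59 in all 22 alternatives. Beside Masp1, the mean of 10 varying acute phase genes and receptors was 11.59 to 11.81 in control, 11.70 to 11.94 in low and 11.87 to 12.05 in high, so that high and control did not overlap. Within that list the higher values in high were mainly those of 3 receptor chains, Il6r at 1.30, Il1r1 at 0.62 and Il6st at 0.47. The median over the 10 genes was 0.015, and the plasma proteins lay on both sides of 0. Apcs at 0.16, Hp at 0.017 and Itih4 at 0.013 were higher in high. Cp at −0.045, Hpx at −0.089, Crp at −0.17 and Orm1 at −0.17 were lower. None of the 10 passed, and the part of the list in the Masp1 difference was not tested. Masp1 has another 2 probe sets, flat at 6.60 and 6.69 log2, near the median of the arrays at 6.59, and which splice form each probe set reads is not given here.

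The promoter of Masp1, from 250 bases before to 50 after its start in RefSeq's GRCr8 assembly, is shown because this gene alone rose. It lies at chr11:90839472-90839771 on the plus strand and holds none of the 6 short motifs searched, which are given with the paired subunits further on.
Masp1: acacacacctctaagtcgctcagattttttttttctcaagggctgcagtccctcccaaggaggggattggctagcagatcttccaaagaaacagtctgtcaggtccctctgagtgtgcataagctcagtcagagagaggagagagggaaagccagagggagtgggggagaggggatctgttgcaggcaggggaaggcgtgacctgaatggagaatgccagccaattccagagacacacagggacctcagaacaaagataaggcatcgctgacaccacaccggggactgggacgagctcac

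**Figure D1:**
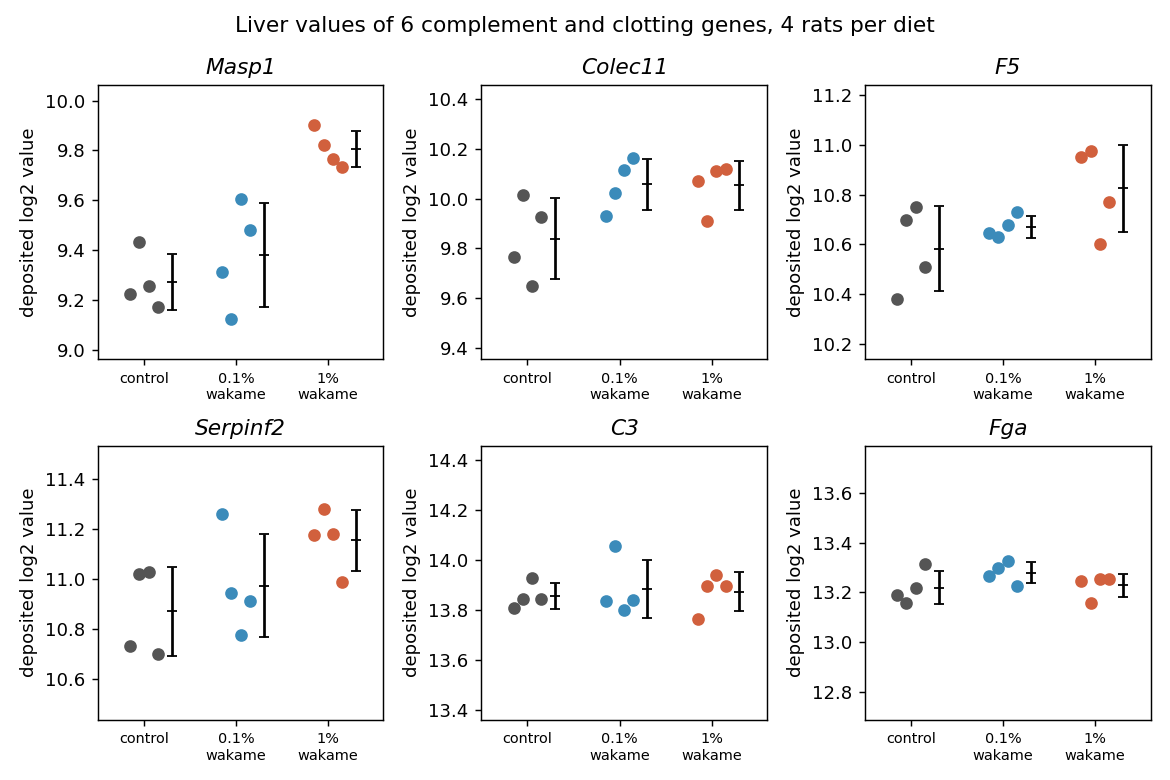
Deposited log2 values (vertical axes, each spanning the same log2 range) of Masp1, Colec11, F5, Serpinf2, C3 and Fga in 4 rats per diet (points), with the mean and SD of each diet beside them. For Masp1 the 4 rats fed 1% wakame sit between 9.73 and 9.90, above all others, while the diets overlap for the other 5 genes.

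Over all measured genes, 20 of 25 had a higher mean with 1% wakame and 5 a lower one, with differences from −0.33 to 0.53 log2 and a median of 0.039. Among all 3240 varying probe sets, 44.9% had a higher mean and the median difference was −0.020, or −0.018 with 1 probe set per gene. The genes were read in the same rats and several varied together, so these signs, and those counted further on, are not independent. An unadjusted p under 0.05 was reached by 4 of the 26 probe sets, all higher, beside 8.40% of varying probe sets in that direction and 18.5% in either. Arrays of high and control did not overlap in 1 of 26, beside 11.3% of varying probe sets. Differences were small in these genes, with a median size of 0.082 against 0.14 over all varying genes, and the median SD over the 12 arrays was 0.16 against 0.21.

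**Figure D2:**
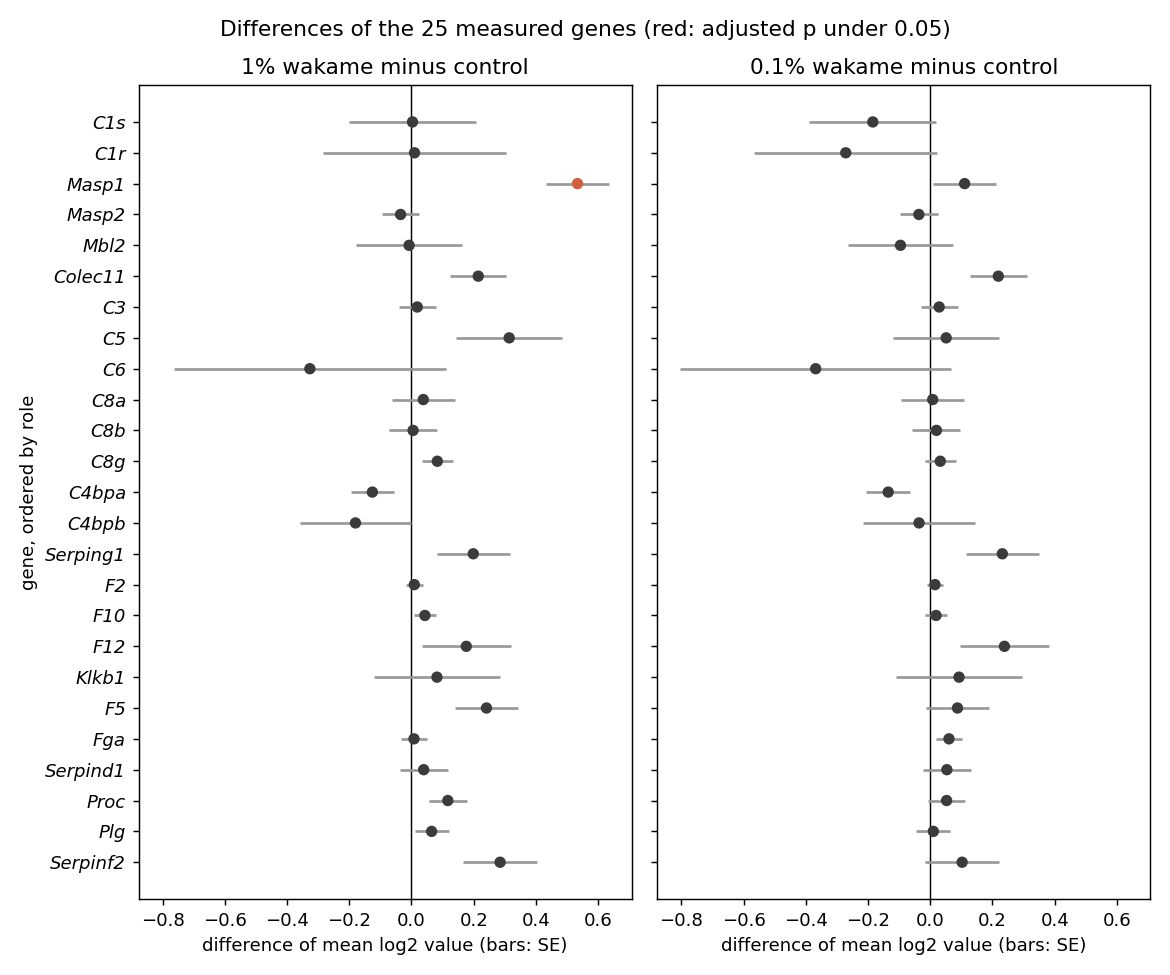
Difference of mean log2 value from control (horizontal axes) for the 25 measured genes, ordered by role, with 1% wakame on the left and 0.1% wakame on the right. Points are differences, bars the SE of the fit, and red marks an adjusted p under 0.05, which Masp1 alone reached, with 1% wakame.

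Of the 9 genes that start the classical and lectin branches, 6 were measured. Colec11, a collectin that binds sugars and carries the proteases of the lectin branch, had values of 9.76, 10.01, 9.65 and 9.93 in control, 9.93, 10.02, 10.11 and 10.16 in low and 10.07, 9.91, 10.11 and 10.12 in high. Control 1 and control 3 lay below all wakame rats, while control 2 and control 4 lay among them. The difference was 0.21 ± 0.091 log2 for high against control (limma adjusted p = 0.243) and 0.22 ± 0.091 for low against control (adjusted p = 0.393), both against the same 4 controls. Colec11 was also on a list of 14 stellate cell and fibroblast markers, of which 5 varied and all 5 had a higher mean in high, by a median of 0.21, with array means of 8.21 to 8.58 in control, 8.03 to 8.63 in low and 8.24 to 8.81 in high. Their part in the Colec11 and Masp1 values was not tested.

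The recognition lectin Mbl2 was at −0.0075 ± 0.17 log2 in high against control and ran from 11.92 to 12.56 over the 12 arrays. That difference was 0.0027 after quantile normalization and 0.015 with arrays centred on the median described in the closing section. Masp2, the lectin branch protease that cleaves C4 and C2, was at −0.035 ± 0.061, or 0.015 after quantile normalization, and spanned 0.18 log2 over the 12 arrays. C1r and C1s, the proteases of the first classical component, were at 0.010 ± 0.29 and 0.0034 ± 0.20. Rats of one diet differed widely in both, and C1r ran from 11.40 to 12.21 in control, 10.95 to 12.25 in low and 11.44 to 12.28 in high. None of these 4 genes passed in any comparison (limma adjusted p from 0.801 to 0.996).

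C3, the component on which all branches meet, had log2 values of 13.81, 13.84, 13.93 and 13.84 in control, 13.83, 14.06, 13.80 and 13.84 in low and 13.76, 13.89, 13.94 and 13.89 in high. The diets overlapped, and the difference was 0.019 ± 0.059 for high against control and 0.029 ± 0.059 for low against control (limma adjusted p = 0.919 and 0.907). Of the 6 terminal genes 5 were measured. C5, which begins the pore, was at 0.31 ± 0.17 in high against control (adjusted p = 0.350), with 10.79 to 11.43 in control and 11.06 to 11.68 in high. C6, which binds next, was the most variable of the 25 genes and ran from 9.37 in high 2 to 11.58 in high 3, a span of 2.21 log2, with a difference of −0.33 ± 0.44. The chains of the eighth component, C8a, C8b and C8g, were at 0.038 ± 0.10, 0.0053 ± 0.077 and 0.083 ± 0.050. None of the terminal genes passed in any comparison.

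Among the regulators, C4bpa and C4bpb, the chains of the C4b-binding protein that speeds the decay of the C3 convertase, were at −0.13 ± 0.070 and −0.18 ± 0.18 in high against control. C4bpa had a mean of 12.92 in control, 12.78 in low and 12.79 in high, and all diets overlapped. Serping1, the C1 inhibitor that blocks both the first complement proteases and the contact enzymes, was at 0.20 ± 0.12 in high and 0.23 ± 0.12 in low against control (limma adjusted p = 0.393 and 0.50). Its lowest value, 11.77, was in control 1 and its highest, 12.43, in high 3.

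In the clotting chain, prothrombin, F2, was the least variable measured gene, from 12.84 to 12.90 log2 over the 12 arrays, and differed by 0.0092 ± 0.027 between high and control. F10, whose active form cuts prothrombin, was at 0.043 ± 0.036. F5, the cofactor of that cut, had values of 10.38, 10.70, 10.75 and 10.51 in control, 10.65, 10.63, 10.68 and 10.73 in low and 10.95, 10.98, 10.60 and 10.77 in high. High 1, 2 and 4 lay above every control and high 3 lay among them, for a difference of 0.24 ± 0.10 (limma adjusted p = 0.238). In the contact system, F12, which starts clotting on charged surfaces, was at 0.18 ± 0.14 and 0.24 ± 0.14 in high and low against control, and Klkb1, plasma prekallikrein, at 0.082 ± 0.20 and 0.093 ± 0.20, with neither passing.

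Of the fibrinogen chains only the alpha chain, Fga, was measured, through 2 varying probe sets. The brighter gave 13.19, 13.16, 13.22 and 13.31 in control, 13.27, 13.30, 13.33 and 13.23 in low and 13.25, 13.16, 13.26 and 13.25 in high. The diets overlapped, and the difference was 0.0082 ± 0.041 for high and 0.060 ± 0.041 for low against control (limma adjusted p = 0.955 and 0.642). The dimmer one varied more, from 11.54 to 12.35 in control alone, and was at −0.072 ± 0.17 and −0.0014 ± 0.17. The beta and gamma chains, Fgb and Fgg, were flat at 13.75, the brightest of 3 probe sets for Fgb, and 13.81.

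Of the anticoagulant genes, Serpind1, heparin cofactor II, was at 0.039 ± 0.077 and Proc, protein C, which inactivates the clotting cofactors, at 0.12 ± 0.060 in high against control (limma adjusted p = 0.858 and 0.328). In fibrinolysis, Plg, the precursor of plasmin, was at 0.065 ± 0.055 (adjusted p = 0.564). Serpinf2, the main plasmin inhibitor, had values of 10.73, 11.02, 11.03 and 10.70 in control, 11.26, 10.94, 10.77 and 10.91 in low and 11.18, 11.28, 11.18 and 10.99 in high. High 1, 2 and 3 lay above every control and high 4 lay below control 2 and 3. The difference between high and control was 0.29 ± 0.12 (adjusted p = 0.238).

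With 0.1% wakame none of the 26 probe sets passed against control (limma, lowest adjusted p = 0.393), and 1, Colec11, had an unadjusted p under 0.05, beside 11.5% of varying probe sets. The adjusted test passed 0.0617% of varying probe sets there, and 18 of the 25 genes had a higher mean, by a median of 0.029, against 44.1% of varying probe sets and a median of −0.018 over them. Low and control overlapped in all 26, where 5.86% of varying probe sets did not. High against control and low against control share their control rats, so their values are not independent. Between 1% and 0.1% wakame none passed either (limma, lowest adjusted p = 0.420, 0.00% of varying probe sets called), and 1, Masp1, had an unadjusted p under 0.05 and no overlap of arrays, beside 6.76% and 3.77% of varying probe sets. The mean was higher in high than in low for 15 of 25 genes and for 49.0% of varying probe sets. In the F-test for any difference among the diets, Masp1 came closest (limma, adjusted p = 0.0786), none passed and Masp1 alone had an unadjusted p under 0.05, where 0.185% and 14.2% of varying probe sets did so.

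Of 13 pairs of partner genes, 6 had both genes measured and were compared over the 12 arrays, which the genes of a pair share. In 3 of the 6 the values correlated from rat to rat with an adjusted p under 0.05, and in 3 they did not. C1r and C1s, which form the protease tetramer of the first component and whose genes are neighbours in GRCr8, had Pearson r = 0.968 and Spearman rho = 0.923 (permutation p = 2e-05 for each, the smallest these 100000 resamples can give, adjusted p = 0.00012 over 6 pairs). Of the other 2300 varying genes none had a higher r with C1r than C1s. On deviations from the diet means r was 0.964, and without the 2 arrays farthest from the median of C1r it was 0.945.

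C4bpa and C4bpb had r = 0.790 and rho = 0.881 (permutation p = 0.00142 and 0.00024, adjusted p = 0.00426 and 0.00072), and r was 0.877 on deviations from the diet means and 0.731 without the 2 arrays farthest out. In GRCr8 there is 1 protein-coding gene between them. Of the other varying genes, C4bpb ranked 6 by its r with C4bpa. C8a and C8b, which are neighbours, had r = 0.753 and rho = 0.804 (permutation p = 0.00662 and 0.00268, adjusted p = 0.0132 and 0.00536), with r = 0.763 within diets. Without 2 arrays r was 0.510, so the relation of C8a with C8b rests in part on these 2, and C8b ranked 8 by its r with C8a. C8g, the chain that is encoded elsewhere, had r = 0.510 and rho = 0.462 with C8a (permutation p = 0.0908 and 0.134, adjusted p = 0.136 and 0.201). With C8b it had r = 0.451 and rho = 0.420 (permutation p = 0.141 and 0.177, adjusted p = 0.169 and 0.212), and r without 2 arrays was 0.232 with C8a and 0.015 with C8b. C8g ranked 128 with C8a and 167 with C8b. Masp1 and Masp2 had r = −0.064 and rho = 0.056 (permutation p = 0.836 and 0.871, adjusted p = 0.836 and 0.871), and r without 2 arrays was −0.38, with Masp2 at rank 1193.

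**Figure D3:**
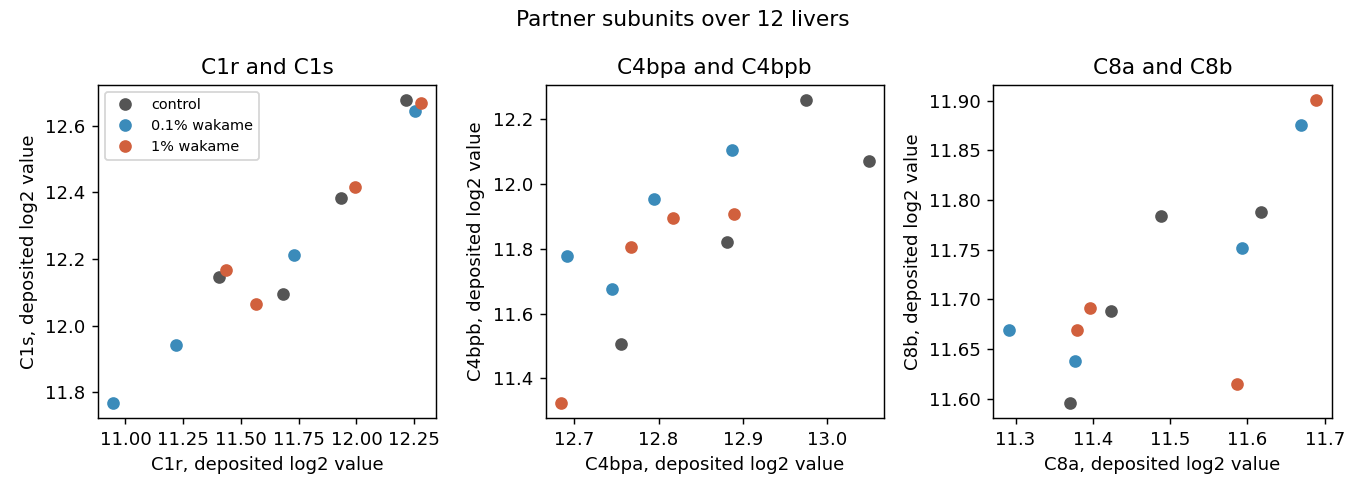
Log2 values of C1s against C1r, C4bpb against C4bpa and C8b against C8a, 1 point per rat, coloured by diet. The C1r and C1s points lie close to 1 line at r = 0.968, and the colours are mixed along it.

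Promoter sequences from RefSeq (GRCr8) were found for 20 of the 25 measured genes, not for C1s, C8g, Masp2, Serpind1 and Serping1, and searched on both strands for 6 short motifs, of which some may overlap. GTTAAT, part of the site of the hepatocyte factor HNF1, was in 8 of 20 (40%), namely C5, C8a, C4bpa, C4bpb, F2, Fga, Proc and Plg, and in 7.45% of all 33469 promoters of that length. TTCNNNGAA, a STAT site, was in 3 of 20 (15%) and 8.87% of all. CACGTG, the E-box, was in 1 (5%) and 6.42% of all, while TTGCGCAA for C/EBP, AAAGTCCA for HNF4 and TTATGTAA, the D-box, were in 0 of 20 and in 0.170%, 1.37% and 0.893% of all. A match describes letters and not a site in use. The promoters of the C4bp and C8 chains are shown, with matches in capitals, because these are the correlated pairs for which both promoters were found. They lie at chr13:44663422-44663721 (C4bpa) and chr13:44683732-44684031 (C4bpb), both minus strand, and at chr5:124866582-124866881 (C8a, minus strand) and chr5:124763864-124764163 (C8b, plus strand).
C4bpa: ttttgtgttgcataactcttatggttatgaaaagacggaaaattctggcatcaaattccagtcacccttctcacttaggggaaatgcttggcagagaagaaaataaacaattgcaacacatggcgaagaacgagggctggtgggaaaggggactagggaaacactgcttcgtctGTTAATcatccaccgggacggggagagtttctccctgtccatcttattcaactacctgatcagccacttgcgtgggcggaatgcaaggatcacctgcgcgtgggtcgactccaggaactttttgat
C4bpb: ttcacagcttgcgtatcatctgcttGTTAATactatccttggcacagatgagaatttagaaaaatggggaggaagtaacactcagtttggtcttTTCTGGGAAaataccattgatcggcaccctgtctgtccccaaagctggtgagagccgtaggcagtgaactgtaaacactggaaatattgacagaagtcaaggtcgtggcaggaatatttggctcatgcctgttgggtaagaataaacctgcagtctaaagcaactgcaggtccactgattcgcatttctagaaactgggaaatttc
C8a: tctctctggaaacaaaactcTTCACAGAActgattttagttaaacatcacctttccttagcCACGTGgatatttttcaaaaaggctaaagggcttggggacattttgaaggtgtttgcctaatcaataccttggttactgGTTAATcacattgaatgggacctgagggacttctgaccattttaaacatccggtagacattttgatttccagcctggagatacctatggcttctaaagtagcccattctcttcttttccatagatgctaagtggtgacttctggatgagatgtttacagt
C8b: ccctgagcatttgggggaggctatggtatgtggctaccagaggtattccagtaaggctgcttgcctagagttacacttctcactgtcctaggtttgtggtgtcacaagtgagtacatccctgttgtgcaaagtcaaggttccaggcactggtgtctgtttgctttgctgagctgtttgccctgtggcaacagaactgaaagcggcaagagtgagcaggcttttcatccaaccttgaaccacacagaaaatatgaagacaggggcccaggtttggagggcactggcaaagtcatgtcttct
Both C4bp chains carry GTTAAT, at 76 bases before the start in C4bpa and 225 before it in C4bpb, and C4bpb also carries a STAT match. C8a carries GTTAAT, a STAT match and the E-box, and C8b holds none of the 6.

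Single rats stood high for many of these genes at once. Control 3 was the highest of the control rats for 14 of 25 genes, low 2 of the low rats for 13 and high 3 of the high rats for 13, and low 3 was the lowest of its diet for 13. Over all 3240 varying probe sets, control 3 was the highest of its diet in 23.6%, low 2 in 25.2% and high 3 in 22.0%, and low 3 the lowest in 25.2%. C1s, C1r, C3, C8a, C8b, C4bpa and Serping1 were highest in these same 3 rats. Beside this, the mean of 10 varying acute phase genes came to 11.81 log2 for control 3, 11.75 for low 2 and 11.88 for high 3, where it was the highest of its diet only in control 3. The mean of 6 hepatocyte markers was 12.54, 12.62 and 12.33 in these rats. Their part in the shared pattern was not tested.

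**Figure D4:**
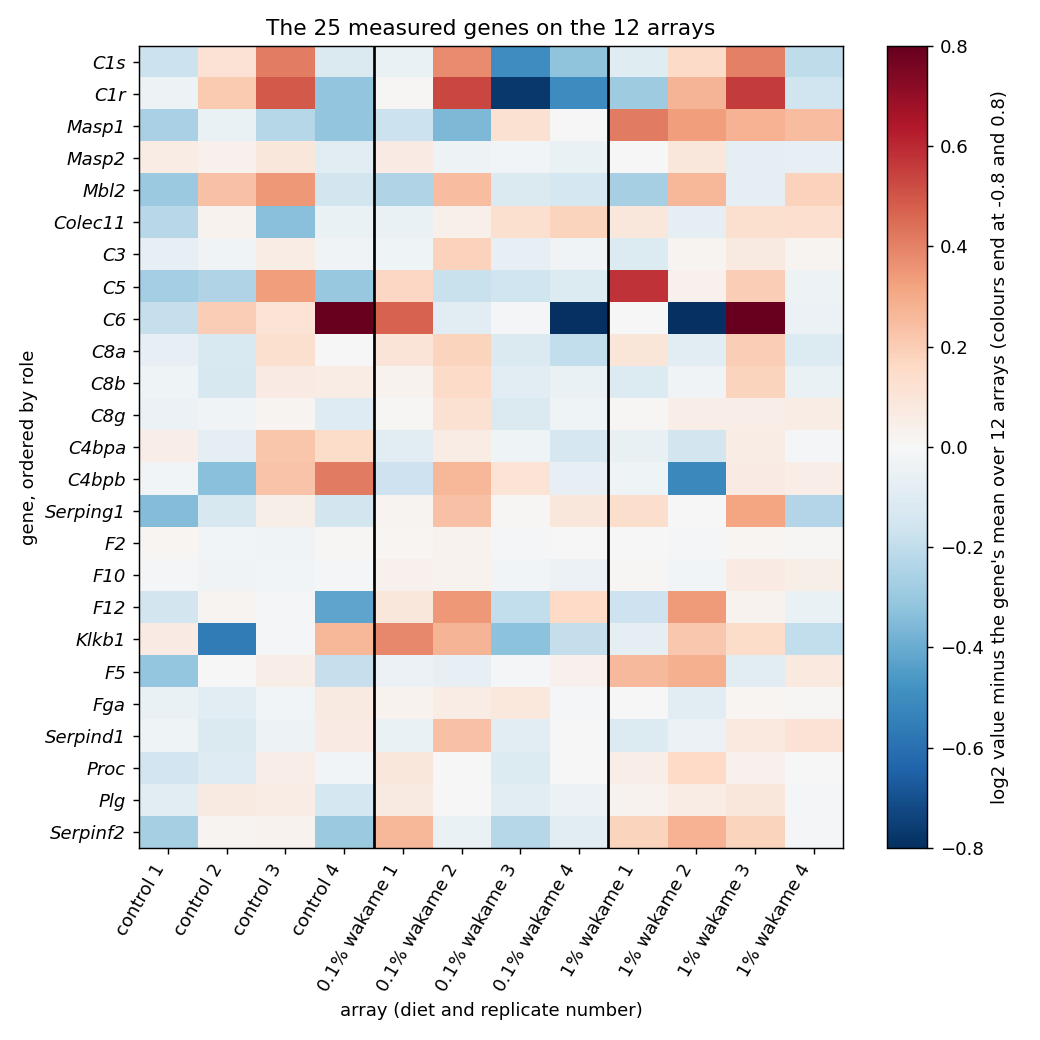
Log2 value of each measured gene (rows, by role) minus its mean over the 12 arrays (columns, by diet), in red where higher and blue where lower, with colours ending at −0.8 and 0.8. Masp1 is red in all 4 rats fed 1% wakame, and C1s and C1r lie on the same side of their means in every rat but low 1.

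Of 24 other complement genes 17 were on the table and 8 varied, with 7 higher in mean and 1 lower in high against control, a median of 0.022 and none passing or under an unadjusted p of 0.05 (limma). C1qbp, a binding protein of C1q, was at −0.061 ± 0.053, Vtn, vitronectin, at 0.024 ± 0.024 and Cfd, factor D of the alternative branch, at 0.16 ± 0.20. Of 26 other clotting and fibrinolysis genes 22 were on the table and 6 varied, 5 higher and 1 lower with a median of 0.023 and none passing or under an unadjusted p of 0.05. Hgfac, a protease related to F12, was at 0.074 ± 0.085, Hrg, a plasma glycoprotein that binds plasminogen, at −0.093 ± 0.19 and A2m, a broad protease inhibitor, at 0.20 ± 0.47. Among all varying probe sets in that comparison, 44.9% had a higher mean. An unadjusted p under 0.05 was reached by 18.5% and 1.67% passed, in either direction. With so few genes on the 2 lists, none passing says little about them.

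Of 7 genes that serve clotting factors before secretion 6 were on the table and 4 varied. In high against control 3 had a lower mean and 1 a higher one, with a median of −0.23, and none passed (limma). An unadjusted p under 0.05 was reached by 3, beside 18.5% of all varying probe sets. Mcfd2, which helps carry F5 and F8 out of the endoplasmic reticulum, was at −0.24 ± 0.064 (adjusted p = 0.0856), with no overlap between high and control. Vkorc1, which recycles the vitamin K needed to finish F2, F7, F9 and F10, was at −0.23 ± 0.087 (adjusted p = 0.207). Nqo1, a quinone reductase, was at −0.98 ± 0.42 (adjusted p = 0.251), and at −1.82 ± 0.42 in low against control (adjusted p = 0.190), with high above low by 0.84 ± 0.42 (adjusted p = 0.779). Ggcx, the carboxylase that uses vitamin K, was at 0.039 ± 0.12 (adjusted p = 0.919) and is named because it is the remaining gene of the 4, chosen after its values were seen.

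Of 14 acute phase genes and receptors 13 were on the table and 10 varied, 6 higher and 4 lower with a median of 0.015. None passed and 4 had an unadjusted p under 0.05 (limma), beside 18.5% of varying probe sets in either direction. Among them were Il6st, the shared signal chain of the interleukin-6 family, at 0.47 ± 0.12 (limma adjusted p = 0.0794), Il6r at 1.30 ± 0.34 (0.0812) and Il1r1 at 0.62 ± 0.22 (0.180). The plasma protein Apcs was the remaining one, at 0.16 ± 0.069 (limma adjusted p = 0.243). In low against control Apcs was at 0.21 ± 0.069 (limma adjusted p = 0.242). Of 12 hepatocyte regulators 11 were on the table and 8 varied, and 1 rose, 1 fell and 6 did not pass. Across the table, 0.864% of varying probe sets passed as higher and 0.802% as lower. These regulators were listed with earlier results of these data known. Nr1d1, a repressor of the circadian clock, rose by 1.98 ± 0.33 (limma adjusted p = 0.0262). Onecut1, a liver transcription factor, fell by 3.17 ± 0.54 (adjusted p = 0.0268), and Dbp, a clock output factor, was at 0.93 ± 0.34 (limma adjusted p = 0.188). Kupffer cell markers, which include C1q chains, varied in 7 of 12, with array means of 8.76 to 9.34 in control, 8.77 to 9.39 in low and 8.81 to 9.30 in high. Among markers of other cells, 2 of 11 endothelial, 0 of 6 cholangiocyte, 1 of 8 lymphocyte, 2 of 8 neutrophil and platelet and 2 of 6 erythroid genes varied. No marker of any cell type passed in high against control, where 1.67% of all varying probe sets passed in either direction. Array means of the 7 Kupffer and 2 endothelial genes, and values of the 1 lymphocyte gene, overlapped between high and control. The part of any cell type in the Masp1 difference was not tested.

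The 15 unmeasured genes divide as follows. C9, the last component of the pore, Cfi, the protease that degrades C3b, Mbl1, F9, Fgb, Fgg, Serpinc1, which is antithrombin, and Pros1, the cofactor of protein C, had flat probe sets, whose SD was no more than 3.12e-06 log2. A flat value does not show that the RNA level was the same. C2, Cfb, C4a and Kng1 were named on probe sets only together with other genes, and F7, F11 and F13b were not found under a single symbol. Masp1, Masp2 and Mbl2 each had flat probe sets beside the varying one, 5 in all.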

How the data were processed

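Liver RNA of 12 rats was measured on an Affymetrix rat array, 1 array per animal. Per the labels' protocols, biotinylated cRNA was made from 100 ng of total RNA with a kit that copies from the 3-prime end. The authors deposited 1 table of log2 values for 31099 probe sets, a scale read from their range of 3.15 to 14.6. The submitters' processing notes name R 2.7.2. For background correction, normalization and summarisation the method is not given in the sources used here. Every array had a median of 6.59.

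After leaving out 57 control probe sets, 3240 of 31042 (10.4%) had an SD over 12 arrays above 0.01. Symbols came from the platform annotation, where 20832 probe sets had 1 symbol, 436 several and 9831 none. All 33 members found matched RefSeq's GRCr8 table by identifier and symbol. limma 3.58.1 in R 4.3.3 fitted a mean per diet to all 12 arrays with a variance trend and no further normalization, and the fit was tested on simulated data. Pairs were tested with scipy 1.17.1 using 100000 resamples.

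The members and lists were chosen with earlier results of these data known. Every member with a varying probe set is named, led by its brightest one, and values for each array are printed for members with an unadjusted p under 0.05 in any comparison, for C3 and for fibrinogen. Of the other gene lists, up to 3 genes with the smallest unadjusted p in high against control are named. The remaining varying acute phase genes and Ggcx are named as well, chosen after their values were seen. Replicates are separate animals. Array number limits the precision, and no detection call stands behind any value. Alternatives changed the probe sets fitted, the SD limit, the trend, the scaling, the samples and the block.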

Additional observations from a re-analysis of the deposited data

Results flagged for a closer look

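In 78 groups of 4 arrays tested for a single array far from the rest, 4 stood out, and chance flags about 1 in 20. C3 in low 2 was at 14.06 log2, with the other low rats from 13.80 to 13.84. C5 in control 3 was at 11.43, with the other controls from 10.79 to 10.86. C8g in high 1 was at 12.47, with the other high rats all at 12.51. Fga in high 2 was at 13.16, with the others from 13.25 to 13.26. None of these genes passed in any comparison.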

How the results depend on the processing

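The count of 1 measured gene changed between high and control, Masp1, was 0 with all probe sets in the fit, 0 with 1 probe set per gene and 0 with the replicate block. Leaving out 1 array gave 0 to 1. It was 1 under the other 7 settings, and in the other comparisons 0 throughout. Calls over the whole table between high and control went from 54 to 9, 10 and 12 under the first 3 settings, and to 28 with only the 2 diets compared, and ranged from 7 without high 2 to 49 without low 4 when 1 array was left out. For low against control that range was 0 to 8. With all probe sets, whole-table calls went from 2 to 5 for low against control and from 0 to 6 for high against low. The median member difference between high and control was 0.028 to 0.097 when 1 array was left out, highest without control 3. No pairing of rats by the labels' numbers was seen. Deviations of same-numbered arrays correlated at −0.12 to 0.092 over 12 pairs, and 1 of 12 arrays was closest to its own number. The labels do not say whether same-numbered arrays were handled together. Under the replicate block Masp1 had a limma adjusted p of 0.100. Signs turned only for members that passed in no comparison. Arrays were also centred on a median other than the one over all probe sets, with a spread of 0.054 log2 between arrays. This centring put Mbl2 at 0.015 between high and control and Masp2 at −0.000099 between high and low. After quantile normalization Masp2 was at 0.015 and Mbl2 at 0.0027 between high and control, Masp2 at 0.0038 between low and control, and Colec11 at 0.012 and Klkb1 at 0.025 between high and low. Between high and control, leaving out 1 array took C1s from −0.11 to 0.12, C1r from −0.14 to 0.14, C8b from −0.055 to 0.040, Fga from −0.013 to 0.040 and Mbl2 from −0.12 to 0.097. Likewise between high and control were Klkb1 from −0.084 to 0.19, C6 from −0.67 to 0.066, C3 from −0.0039 to 0.056 and C8a from −0.020 to 0.086. Between low and control, leaving out 1 array took C8a from −0.054 to 0.072, Plg from −0.028 to 0.041, C8b from −0.028 to 0.052, Klkb1 from −0.073 to 0.21 and Mbl2 from −0.21 to 0.0087. Likewise between low and control were C4bpb from −0.17 to 0.079, C5 from −0.027 to 0.20, C3 from −0.029 to 0.056, C8g from −0.0097 to 0.069 and Serpind1 from −0.017 to 0.089. Between high and low, leaving out 1 array took C4bpa from −0.024 to 0.045, Klkb1 from −0.13 to 0.11, Masp2 from −0.033 to 0.028, C3 from −0.037 to 0.048 and C8b from −0.075 to 0.033. Likewise between high and low were Serping1 from −0.12 to 0.064, F2 from −0.014 to 0.00040, F12 from −0.16 to 0.021, Serpind1 from −0.049 to 0.057 and Colec11 from −0.046 to 0.044. Likewise between high and low were C8a from −0.034 to 0.093 and C6 from −0.30 to 0.43. The cause of these changes was not tested. With 4 arrays per diet, the SE of the members had a median of 0.10 log2, and effects of several SE could fail the adjusted test. Masp1 in high against low, at 0.42 ± 0.10, had a limma adjusted p of 0.420. A member that did not pass may differ by such an amount, and flat probe sets give no information on change.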
